A study of Mus musculus with 18 samples.

Results

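Prostaglandins and leukotrienes are lipid mediators that cells make from arachidonic acid, and the 10 genes described here code for the enzymes that start and shape that synthesis. They were taken as a named list of pathway enzymes (Ptgs1, Ptgs2, Ptges, Ptges2, Hpgds, Alox5, Alox5ap, Lta4h, Ltc4s and Alox15) and found by Ensembl identifier, 10 of the 55029 genes in the tables. The study counted RNA by 3′ sequencing in eosinophils washed from the peritoneum of C57BL/6 mice that carry an Il5 transgene (line NJ.1638). T and B cells were removed with beads against Thy1.2 and B220, and cells were used when flow cytometry put their purity above 95%. The cells then spent 18 h in DMEM with 10% fetal calf serum, either unstimulated or with heat-inactivated E. coli, IFN-γ at 50 ng/ml, IFN-γ together with E. coli, or IL-4 at 100 ng/ml. Every group thus carried the transgene, a source of extra IL-5 for eosinophils, and no group of mice without it is present. The sources used here give no age for the mice.

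Cyclooxygenases turn free arachidonic acid into prostaglandin H2, from which terminal synthases make prostaglandin E2 or prostaglandin D2. On the other arm, 5-lipoxygenase and its activating protein make leukotriene A4, which is converted to leukotriene B4 by a hydrolase or joined to glutathione to give leukotriene C4. Eosinophils are a known source of the glutathione-linked leukotrienes and of products of 15-lipoxygenase activity.

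The counts came in 2 sets. The 1st set had 12 libraries: 3 with E. coli, 3 with IFN-γ, 3 with both and 3 unstimulated (a, b and c). The 2nd set had 6 libraries: 3 with IL-4 and 3 unstimulated (d, e and f). Levels are given below as normalized CPM (counts relative to a library's scaled total), computed within each set, and every stimulus was set against the unstimulated libraries that came in the same file layout. A gene was called when the edgeR quasi-likelihood test gave a Benjamini-Hochberg adjusted p under 0.05 over all genes tested. The E. coli, IFN-γ and combined comparisons therefore share libraries a to c. Libraries of the 1st set held 1523808 to 2734041 counts on genes, and after scaling 3 counts stood for 1.00 to 2.19 CPM. Those of the 2nd set held 3625036 to 6482289, and 3 counts stood for 0.497 to 0.833 CPM. These floors cover counting error only. The study calls its replicates biological. The labels do not say whether they came from separate animals or separate cultures, so p-values measure the spread between these samples.

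In the 12 libraries of the 1st set the highest count of any gene was 4089 to 4095, just under the number of different sequences that 6 bases can spell. Among the other 6 libraries the highest gene count was 87377 to 191131. Whether reads sharing a molecular identifier had been collapsed is not stated. Counts of Alox15 stood at 37.1 to 91.1% of that number, those of Alox5ap at 44.7 to 89.5% and those of Alox5 at 20.7 to 60.6%, so their differences can be compressed, and levels are not compared between the sets. Library e stood apart within the 2nd set, with a chi-square per gene of 23.1 against library d and 21.9 against library f, where d against f gave 7.64. The 4 members called with IL-4 were called without library e too, at log2 fold changes of 0.95 (Ptgs2, adjusted p 0.0023), −1.47 (Ptges, 2.4e-06), 1.75 (Ltc4s, 0.00193) and 0.63 (Lta4h, 0.00216).

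Markers of the labelled cell type were checked in each library, since the enzymes are made by several leukocytes. All 8 eosinophil markers were detected, with Ccr3 the most abundant, although Prg3 stayed at 3 counts or fewer throughout the 1st set. Their summed level was 2450, 3110 and 2550 CPM in libraries a to c, 2210, 2010 and 2190 CPM with E. coli, 2420, 2150 and 2650 CPM with IFN-γ, and 2170, 1930 and 1980 CPM with both. For the 2nd set the sum was 2750, 3660 and 2830 CPM unstimulated and 2680, 2790 and 2660 CPM with IL-4. Eosinophil markers were thus present in every library, but Ccr3 alone made up 1200 to 1780 CPM of the sum in the 1st set and 1230 to 2670 CPM in the 2nd, and the sum hides moves of the others. Of 5 eosinophil markers tested in the 1st set, 1 was higher and 2 lower with E. coli (13.5 and 16.7% of all genes), 4 were lower with IFN-γ (16.0% of all genes), and 1 was higher and 3 lower with both (23.9 and 25.2% of all genes). With both, Siglecf (log2 −1.55), Il5ra (−1.28) and Prg2 (−1.13) fell and Ear6 rose (0.52). Ccr3 was not called (0.10, adjusted p 0.546), but its counts stood at 55.1 to 87.3% of the ceiling in the 1st set, so no stability is read from it. With IL-4, 4 of 8 were higher (5.97% of all genes), namely Ear6 (log2 1.34), Prg2 (0.83), Il5ra (0.60) and Siglecf (0.39). The 1 called lower (4.35% of all genes) was Ccr3 (−0.72, adjusted p 0.0117). The part of these moves in the enzyme results was not tested. All 9 macrophage markers were detected too, C1qc being the most abundant. The macrophage sum was 720, 569 and 698 CPM in libraries a to c, 309, 282 and 589 CPM with E. coli, 1060, 1020 and 1010 CPM with IFN-γ, and 891, 1110 and 1260 CPM with both. It was 1850, 2030 and 2420 CPM in libraries d to f and 1620, 1520 and 1760 CPM with IL-4. Macrophage markers were therefore present in all libraries, and their sum was lowest in E. coli libraries 1 and 2. That sum too hides moves of single markers. With E. coli, IFN-γ, both and IL-4, Marco was at log2 −1.72, 1.04, 1.33 and −2.77, each called. C1qc, at −0.53, 0.27, 0.39 and −0.06, was called with none. Of 8 macrophage markers tested in the 1st set, 4 were lower with E. coli (16.7% of all genes), 2 were higher and 1 lower with IFN-γ (15.6 and 16.0%) and likewise with both (23.9 and 25.2%), and 4 of 9 were lower with IL-4 (4.35%).

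B-cell markers (6 of 6 detected, Ighm the most abundant) summed to 218, 196 and 117 CPM in libraries a to c, 40.8, 44.5 and 76.5 CPM with E. coli, 100, 61.6 and 58.1 CPM with IFN-γ, and 121, 134 and 128 CPM with both. They summed to 25, 23.7 and 43.4 CPM in libraries d to f and 64.3, 58.6 and 71.8 CPM with IL-4. Of 5 B-cell markers tested in the 1st set, 5 were lower with E. coli (16.7% of all genes), 4 with IFN-γ (16.0%) and none with both, and 3 of 4 were higher with IL-4 (5.97%), namely Ms4a1 (log2 1.76), Cd79b (1.44) and Ighm (0.90). T-cell markers summed to 1.82 to 9.32 CPM over all 18 libraries, with Cd3d the most abundant and Cd3e, Cd3g, Cd4, Cd8a and Thy1 at 3 counts or fewer in every library. Platelet markers (4 of 6 detected) summed to 416 to 687 CPM in the 1st set and 596 to 830 CPM in the 2nd, with Pf4 the most abundant and the defining markers Gp9 and Gp1bb at 0. Single platelet markers moved in opposite directions within that sum: Ppbp was at log2 4.23 with both and −3.67 with IL-4, and Itgb3 at −3.16 with both and −0.03 with IL-4. Mesothelial markers summed to 0 to 2.08 CPM, so that cell type left almost no RNA in the libraries. RNA here came from bulk samples, in which fewer cells of a type and less RNA per cell cannot be told apart.

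Of the 10 members, 8 passed the filter on low counts in the 1st set (all but Hpgds and Ltc4s) and 10 passed in the 2nd. With E. coli 2 of 8 members were called higher, where 13.5% of all genes tested were, and 1 was called lower, against 16.7% of all genes. With IFN-γ 1 member was higher (15.6% of all genes) and 3 were lower (16.0% of all genes). With both stimuli 2 members were higher (23.9% of all genes) and 4 were lower (25.2% of all genes). With IL-4 3 of 10 members were higher, where 5.97% of all genes were, and 1 was lower, where 4.35% of all genes were. The median log2 fold change of the members tested was 0.27, 0.03, −0.62 and 0.16 in that order of stimuli, beside −0.02, −0.03, −0.04 and 0 over all genes. The 1st-set shares are counts of 1 to 4 genes among 8 and lie in a background where a large part of all genes moved. The IL-4 shares rest on 3 and 1 of 10 genes, and 2 members were called higher when any 1 IL-4 library was left out. Nothing is read from the shares of either set about the list.

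**Figure D1:**
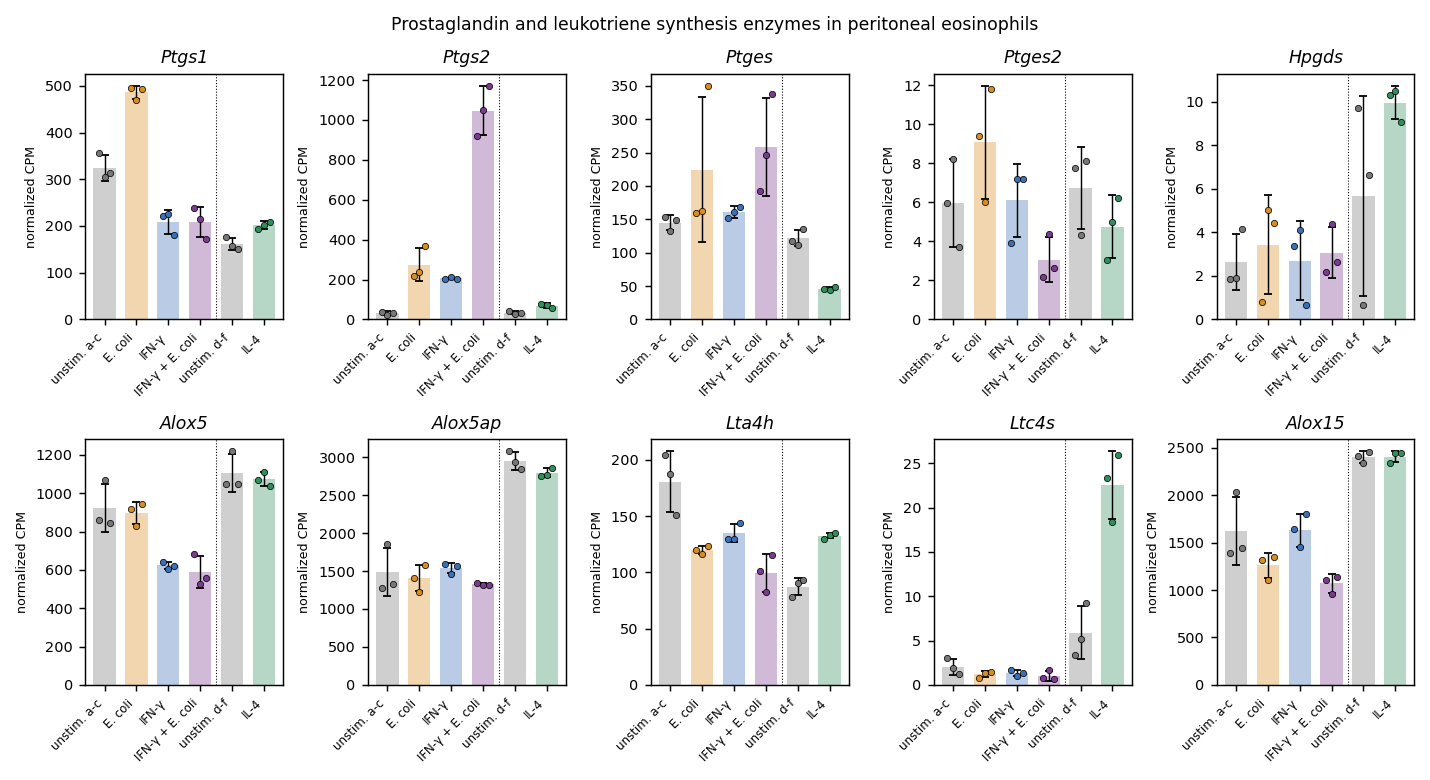
Level of each of the 10 enzyme genes in normalized CPM. Bars are means of 3 libraries, error bars are SD and each point is 1 library. The dotted line separates the 12 libraries of the 1st set from the 6 of the 2nd, between which levels are not compared. Mean Ptgs2 was 31.6 CPM in libraries a to c and 1050 CPM with both stimuli, and mean Ltc4s was 5.91 CPM in libraries d to f and 22.6 CPM with IL-4.

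**Figure D2:**
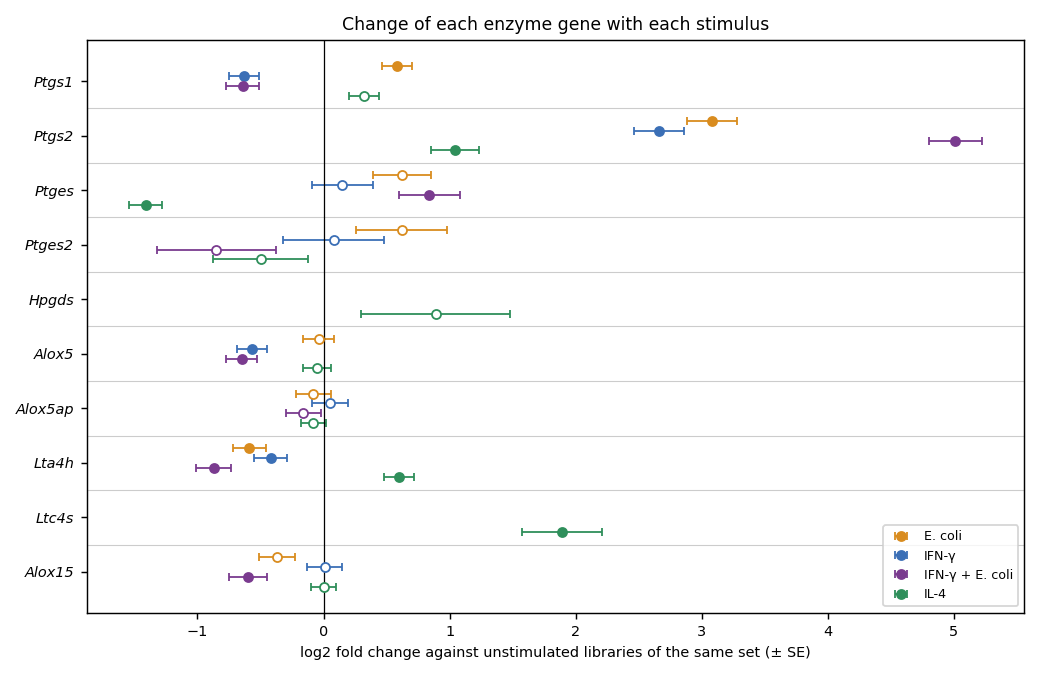
Log2 fold change of each enzyme gene with each stimulus against the unstimulated libraries of the same set. Points are edgeR estimates, error bars are SE, and filled points had an adjusted p under 0.05. Ptgs2 went from 1.04 with IL-4 to 5.01 with both stimuli, and Ptges reached −1.41 with IL-4. Hpgds and Ltc4s were tested in the IL-4 comparison only.

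Ptgs1 codes for the cyclooxygenase often called constitutive (ENSMUSG00000047250, chromosome 2, plus strand). Its level was 356, 304 and 313 CPM in libraries a to c, 495, 469 and 493 CPM with E. coli, 222, 225 and 180 CPM with IFN-γ, and 238, 215 and 173 CPM with both. All 3 E. coli libraries stood above the unstimulated libraries, and the 6 libraries with IFN-γ, alone or with E. coli, stood below them with no overlap. The change was log2 0.58 (SE 0.12, adjusted p 0.00118, 1.49-fold) with E. coli, −0.63 (SE 0.12, adjusted p 0.00071) with IFN-γ and −0.64 (SE 0.13, adjusted p 0.000347) with both. Between the 2 single stimuli, Ptgs1 was 2.32-fold higher with E. coli than with IFN-γ (log2 1.21, adjusted p 4.52e-07). Adding IFN-γ to E. coli took Ptgs1 down 2.33-fold (log2 −1.22, adjusted p 3.85e-07), whereas adding E. coli to IFN-γ left it at a log2 difference near 0 (−0.01, adjusted p 0.988). Ptgs1 was at 176, 157 and 151 CPM in libraries d to f and 193, 203 and 209 CPM with IL-4. The IL-4 libraries lay above the unstimulated ones without overlap, yet the change of log2 0.32 (SE 0.12) was not called (adjusted p 0.113). An exon of Ptgs1 shares bases with Gm43621 on the opposite strand, and the strand setting of the counting is not stated.

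Ptgs2 codes for the inducible cyclooxygenase (ENSMUSG00000032487, chromosome 1, plus strand). Libraries a to c held 39.1, 22.2 and 33.5 CPM of Ptgs2, the E. coli libraries 218, 239 and 368 CPM, the IFN-γ libraries 202, 211 and 203 CPM, and those with both 921, 1050 and 1170 CPM. Each stimulated group lay above the unstimulated one. The E. coli libraries sat above the IFN-γ libraries, library 3 the farthest, and every library with both lay above every other library. Ptgs2 rose 8.44-fold with E. coli (log2 3.08, SE 0.20, adjusted p 2.21e-09), 6.32-fold with IFN-γ (log2 2.66, SE 0.20, adjusted p 1.16e-08) and 32.3-fold with both (log2 5.01, SE 0.21, adjusted p 1.04e-12). Against the single stimuli, the combination was higher by log2 2.35 than IFN-γ (adjusted p 2.85e-08) and by log2 1.94 than E. coli (adjusted p 5.38e-08). E. coli and IFN-γ did not differ in the test (log2 0.42, adjusted p 0.0857), and single libraries moved the difference from 0.56 without E. coli library 1, which was called (adjusted p 0.0351), to 0.16 without library 3 (adjusted p 0.51). It was called in the fit without a filter (0.43, adjusted p 0.0115) and with the replicate number as a block (0.39, adjusted p 0.0242). Without E. coli library 3, the highest of its group, the E. coli change of Ptgs2 was log2 2.82. The interaction term, which asks whether the combination departs from the sum of the single log2 changes, was −0.73 for Ptgs2 (adjusted p 0.14), and only the fit without a filter called it (−0.79, adjusted p 0.0041).

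With IL-4, Ptgs2 rose in its own set as well: 40.8, 28.7 and 31.1 CPM unstimulated against 77.8, 72.8 and 55 CPM. The groups did not overlap, and the rise was 2.06-fold (log2 1.04, SE 0.19, adjusted p 0.00614). The IL-4 change was smaller than the combined change when the responses were compared directly (log2 −4.03, adjusted p 5.58e-10). Neutrophil markers were detected in both sets (7 of 7, Mmp8 the most abundant in the 1st and S100a9 in the 2nd), and 3 of them were tested in the 1st set. Mmp8 and S100a8 were called higher with every stimulus of that set, and Ly6g with IFN-γ and both but not with E. coli (log2 −0.39, adjusted p 0.515). The sum of the list was 22.4, 21.5 and 28.5 CPM in libraries a to c, 86.4, 78 and 161 CPM with E. coli, 96.8, 105 and 108 CPM with IFN-γ, and 256, 276 and 295 CPM with both. Mmp8 alone made up as much as 210 CPM of it, and Ltf and Ngp stayed at 3 counts or fewer in that set. With IL-4 the neutrophil sum was 16, 19.4 and 22.8 CPM against 22.8, 22.9 and 31.7 CPM, not above the unstimulated libraries. Mast-cell and basophil markers (7 of 8 in the 1st set, Tpsb2 the most abundant, Mcpt8 at 0) summed to 9.68, 8.24 and 7.42 CPM in libraries a to c, 10.6, 7.02 and 34.6 CPM with E. coli, 30.2, 14.4 and 13.1 CPM with IFN-γ, and 36.5, 72.9 and 66.7 CPM with both. That sum was 9.16, 6.63 and 7.37 CPM in libraries d to f and 17.5, 8.15 and 21 CPM with IL-4. The mast-cell and neutrophil sums were highest with both stimuli, as Ptgs2 was, and their part in the Ptgs2 result was not tested.

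The genes most like Ptgs2, by distance over the 4 log2 changes among 8739 genes, were Hdc (distance 0.82), Procr (1.22) and Smpd5 (1.25). Hdc, the gene of histidine decarboxylase, changed by log2 2.81 with E. coli, 3 with IFN-γ, 4.51 with both and 0.56 with IL-4. The 300-base window around the Ptgs2 start is shown because Ptgs2 moved most among the enzymes. It was searched on both strands for κB (GGGANTTTC), CRE (TGACGTCA), AP-1 (TGANTCA), C/EBP (TTGCNNAA), E-box (CACGTG), STAT6 (TTC and GAA with 4 bases between) and GAS (TTCNNNGAA) letters, and on 1 strand for TATAAA. In the RefSeq window from GRCm38.p6, chr1:150099781-150100080 on the plus strand, capitals mark a C/EBP match at −69 and an E-box match at +17.
Ptgs2: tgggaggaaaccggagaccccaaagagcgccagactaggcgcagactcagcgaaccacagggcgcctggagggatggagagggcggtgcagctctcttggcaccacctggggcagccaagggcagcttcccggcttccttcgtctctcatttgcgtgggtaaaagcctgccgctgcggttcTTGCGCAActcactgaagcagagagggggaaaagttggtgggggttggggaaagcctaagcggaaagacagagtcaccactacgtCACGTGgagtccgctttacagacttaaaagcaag
C/EBP letters occurred in 10.8% and E-box letters in 7.15% of the 32851 windows searched. The shares for the other motifs were 1.11% (κB), 1.79% (CRE), 7.81% (AP-1), 6.95% (STAT6), 8.3% (GAS) and 8.32% (TATAAA). A match describes letters and is not a binding site.

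Ptges codes for microsomal prostaglandin E synthase 1, which takes prostaglandin H2 to prostaglandin E2 (ENSMUSG00000050737, chromosome 2, minus strand). It stood at 153, 132 and 149 CPM in libraries a to c, 160, 163 and 350 CPM with E. coli, 152, 161 and 169 CPM with IFN-γ, and 192, 247 and 337 CPM with both. E. coli library 3 was far above the other E. coli libraries, the IFN-γ group overlapped the unstimulated one, and all libraries with both were above it. Ptges rose with both (log2 0.84, SE 0.24, adjusted p 0.00687, 1.78-fold) and was not called with E. coli (log2 0.62, SE 0.23, adjusted p 0.0538) or IFN-γ (log2 0.15, SE 0.24, adjusted p 0.689). The E. coli result hung on single libraries: it was log2 0.82 without E. coli library 1 (adjusted p 0.0169) and 0.82 without library 2 (adjusted p 0.0184), both called, and 0.16 without library 3 (adjusted p 0.512). With all libraries it was also called by DESeq2 (log2 0.64, adjusted p 0.0444), in a fit of the 6 libraries compared (0.64, 0.0491) and without a filter (0.65, 1.68e-05). E. coli library 3 was also the E. coli library with the highest macrophage sum (589 CPM), neutrophil sum (161 CPM) and mast-cell sum (34.6 CPM). Its platelet sum (642 CPM) and B-cell sum (76.5 CPM) were the highest of that group too. In the combined group the macrophage, neutrophil and platelet sums increased from library 1 to 3, as Ptges did. The mast-cell, B-cell and T-cell sums were highest in combined library 2. The part of these lists in the Ptges values was not tested. Against E. coli alone, the combination was not called for Ptges (log2 0.22, adjusted p 0.508), but it was called at log2 0.68 without E. coli library 3 (adjusted p 0.00382). Against IFN-γ alone it was not called (log2 0.69, adjusted p 0.0675) but was without combined library 1 (log2 0.86, adjusted p 0.0321), in a fit of the 6 libraries (0.66, 0.0217), without a filter (0.66, 4.99e-05) and with the replicate number as a block (0.64, 0.0125).

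IL-4 moved Ptges the other way. Its level was 118, 112 and 135 CPM in libraries d to f and 46, 43.5 and 48.5 CPM with IL-4. The groups were far apart and each was tight, with a 2.65-fold fall (log2 −1.41, SE 0.13, adjusted p 0.000186). The IL-4 response of Ptges was below the combined response in the direct test (log2 −2.30, adjusted p 6.46e-06). Markers of other cells called higher with both and lower with IL-4 were Ppbp of the platelet list (log2 4.23 and −3.67), Mmp8 of the neutrophil list (4.36 and −1.59), and Marco (1.33 and −2.77) and C1qb (0.85 and −0.51) of the macrophage list. Others on these lists did not follow: with both, Cd5l (−0.73), Itgb3 (−3.16) and Itga2b (−0.40) were called lower, and with IL-4 Timd4 (0.53) and Gata6 (0.62) were not called. The part of these lists in the Ptges result was not tested. By the same distance as above, Mcemp1 (0.30), Slpi (0.31) and Ccdc80 (0.45) were the genes most like Ptges. The window of Ptges, chr2:30903248-30903547 on the minus strand, is shown beside that of Ptgs2 because both genes rose with the combined stimulus and parted with IL-4. Its capitals mark the only motif match in it, the STAT6 letters at −197.
Ptges: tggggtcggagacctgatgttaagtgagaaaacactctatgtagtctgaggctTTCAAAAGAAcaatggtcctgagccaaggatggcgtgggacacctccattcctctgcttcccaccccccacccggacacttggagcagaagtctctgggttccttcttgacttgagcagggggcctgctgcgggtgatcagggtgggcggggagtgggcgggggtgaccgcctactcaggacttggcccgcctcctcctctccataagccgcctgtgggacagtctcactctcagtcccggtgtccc
Windows were found for 8 of the 10 enzyme genes, and Ptges2 held an E-box match at −77 and Hpgds a C/EBP match at −176, whereas Ptgs1, Alox5, Ltc4s and Lta4h held none of the letters searched.

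Ptges2 codes for the membrane-associated prostaglandin E synthase 2 (ENSMUSG00000026820, chromosome 2, plus strand), and its counts were low. It was at 5.96, 8.24 and 3.72 CPM in libraries a to c, 9.38, 6.02 and 11.8 CPM with E. coli, 3.92, 7.18 and 7.19 CPM with IFN-γ, and 2.19, 4.38 and 2.64 CPM with both. In the 2nd set it was at 7.78, 4.31 and 8.12 CPM unstimulated and 3.04, 4.98 and 6.22 CPM with IL-4. All stimulated groups overlapped their unstimulated libraries, and none was called: log2 0.62 with E. coli (adjusted p 0.212), 0.08 with IFN-γ (0.906), −0.85 with both (0.145) and −0.50 with IL-4 (0.447). Every combined library was below every E. coli library, a difference of log2 −1.47 (SE 0.43, adjusted p 0.014). That call was lost without E. coli library 3 (log2 −1.25, adjusted p 0.0508) or without combined library 1 (log2 −1.29, adjusted p 0.0544).

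Hpgds codes for hematopoietic prostaglandin D synthase (ENSMUSG00000029919, chromosome 6, minus strand). It had 5, 3 and 10 counts in libraries a to c, 2, 15 and 9 with E. coli, 6, 8 and 1 with IFN-γ, and 3, 8 and 4 with both, too few to pass the filter. In the 2nd set it was at 9.72, 0.663 and 6.61 CPM unstimulated and 10.3, 10.5 and 9.07 CPM with IL-4. The IL-4 libraries were even, while library e, with 4 counts, was far below libraries d and f with 35 each, and the groups overlapped. The change was log2 0.89 (SE 0.59, adjusted p 0.387), not called, and it was 0.31 without library e and 1.48 without library d.

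Alox5 codes for 5-lipoxygenase, which makes leukotriene A4 (ENSMUSG00000025701, chromosome 6, minus strand). It was at 858, 1070 and 847 CPM in libraries a to c, 920, 830 and 942 CPM with E. coli, 643, 607 and 620 CPM with IFN-γ, and 681, 524 and 559 CPM with both. The E. coli group lay within the unstimulated spread or just below it, and all 6 libraries with IFN-γ lay below all others. Alox5 fell with IFN-γ (log2 −0.57, SE 0.12, adjusted p 0.00157) and with both (log2 −0.65, SE 0.12, adjusted p 0.000237) and was flat with E. coli (log2 −0.04, adjusted p 0.828). In direct tests it was higher with E. coli than with IFN-γ (log2 0.53, adjusted p 0.00331) and lower with both than with E. coli (log2 −0.61, adjusted p 0.000822). With IL-4 it was at 1070, 1110 and 1040 CPM beside 1050, 1220 and 1050 CPM, which overlapped (log2 −0.05, adjusted p 0.815).

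Alox5ap codes for the 5-lipoxygenase activating protein, which presents arachidonic acid to the enzyme (ENSMUSG00000060063, chromosome 5, plus strand). Its values were 1280, 1850 and 1330 CPM in libraries a to c, 1410, 1230 and 1580 CPM with E. coli, 1590, 1460 and 1560 CPM with IFN-γ, and 1340, 1320 and 1320 CPM with both. Those in libraries d to f were 3080, 2940 and 2840 CPM, against 2750, 2770 and 2860 CPM with IL-4. All groups overlapped their unstimulated libraries. No change was called: log2 −0.08 with E. coli (adjusted p 0.711), 0.05 with IFN-γ (0.814), −0.16 with both (0.345) and −0.08 with IL-4 (0.658). Alox5ap shares exon bases with Gm19719 on the opposite strand.

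Since counts of Alox5ap and Alox15 reached the upper range of the count ceiling in the 1st set, and those of Alox5 and Ptgs2 as much as 60.6 and 47% of it, an alternative chosen after seeing the data expanded each count as if the identifiers of 6 bases had filled at random. Under it, mean Alox5ap became 2180 CPM (SD 271) in libraries a to c, 2330 (SD 18.6) with E. coli, 1930 (SD 129) with IFN-γ and 1430 (SD 76.1) with both. The combined group then lay below the rest, and Alox5ap was called lower with both (log2 −0.61, adjusted p 0.000145), which it was not on the deposited counts. It was then also called lower with both than with IFN-γ (log2 −0.43, adjusted p 0.0128) or E. coli (log2 −0.70, adjusted p 5.75e-05). Alox5 kept its calls, at log2 −0.80 with IFN-γ and −0.92 with both, and Ptgs2 with both became 41.9-fold. Whether the deposited counts do follow such filling was not tested.

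**Figure D3:**
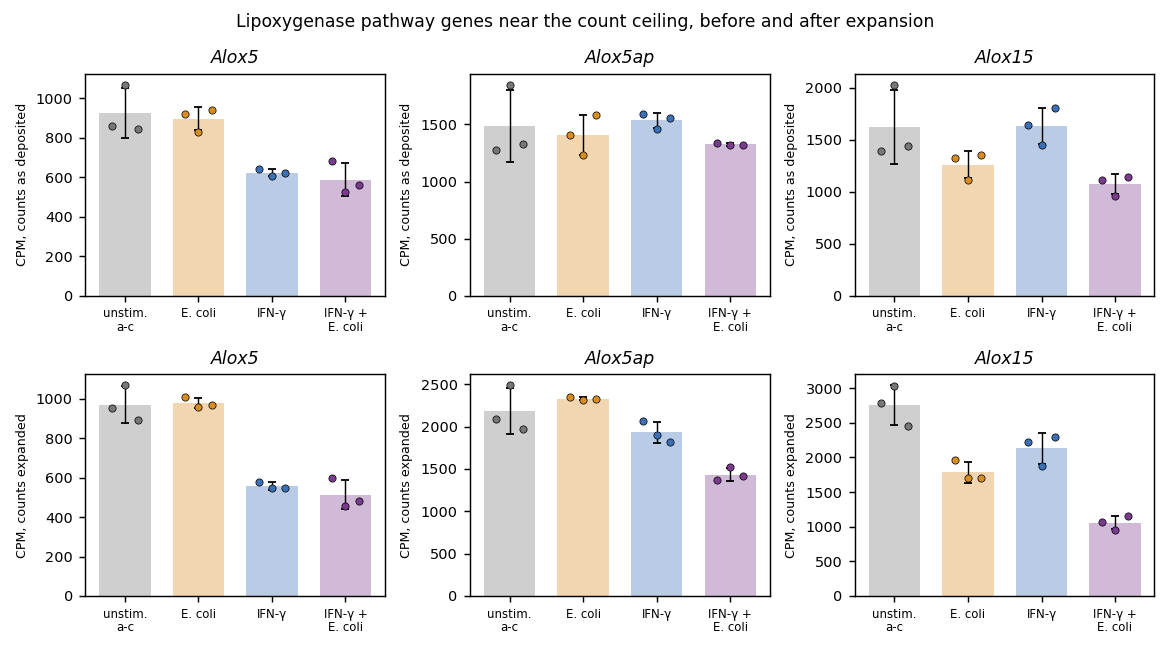
Alox5, Alox5ap and Alox15 in the 1st set, as deposited (top) and after expanding counts for the ceiling (bottom), in CPM. Bars are means of 3 libraries, error bars are SD and points are single libraries. Expanded mean Alox15 was 2760 CPM unstimulated, 1780 CPM with E. coli, 2130 CPM with IFN-γ and 1060 CPM with both.

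Lta4h codes for leukotriene A4 hydrolase, which makes leukotriene B4 (ENSMUSG00000015889, chromosome 10, plus strand). It was at 204, 187 and 151 CPM in libraries a to c, 120, 116 and 123 CPM with E. coli, 130, 130 and 144 CPM with IFN-γ, and 101, 82.2 and 115 CPM with both. All 9 stimulated libraries were below the 3 unstimulated ones. Lta4h fell with E. coli (log2 −0.59, SE 0.13, adjusted p 0.00164), IFN-γ (log2 −0.42, SE 0.13, adjusted p 0.0189) and both (log2 −0.87, SE 0.14, adjusted p 3.39e-05). The IFN-γ call was lost without library a (log2 −0.32, adjusted p 0.122), library b (−0.37, 0.0663), IFN-γ library 1 (−0.39, 0.0667) or IFN-γ library 2 (−0.37, 0.0901). The combination was below IFN-γ alone (log2 −0.44, adjusted p 0.0436), a call lost with DESeq2 (adjusted p 0.0631) and when single libraries were left out. It was log2 −0.47, −0.48 and −0.39 without IFN-γ library 1, 2 or 3 (adjusted p 0.0873, 0.0764 and 0.13), and −0.46 and −0.32 without combined library 1 or 2 (adjusted p 0.0824 and 0.222). Against E. coli alone it was not called (log2 −0.27, adjusted p 0.14) but was without combined library 3 (log2 −0.40, adjusted p 0.0412). With IL-4 Lta4h went up, from 78.3, 90.9 and 92.9 CPM to 130, 133 and 135 CPM. Those groups did not overlap (log2 0.60, SE 0.12, adjusted p 0.0118). That call was lost without IL-4 library 1 (log2 0.63, adjusted p 0.0541), 2 (0.59, 0.0673) or 3 (0.58, 0.0619), while the size hardly moved. The IL-4 response of Lta4h was above the combined response by log2 1.41 (adjusted p 2.03e-06). B-cell markers too were lower with E. coli and with IFN-γ and higher with IL-4, as given above, but none was called with both, where Lta4h was lowest. All 5 tested were higher with both than with E. coli (32.8% of all genes called in either direction), and their part in the Lta4h and Ltc4s results was not tested.

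Ltc4s codes for leukotriene C4 synthase, which joins leukotriene A4 to glutathione (ENSMUSG00000020377, chromosome 11, minus strand). In the 1st set it had 8, 3 and 3 counts in libraries a to c, 2, 4 and 3 with E. coli, 3, 2 and 2 with IFN-γ, and 1, 3 and 1 with both. All of these sat at or near the 3-count floor, and the gene did not pass the filter there. In the 2nd set it was at 3.33, 5.14 and 9.25 CPM unstimulated and 23.4, 18.4 and 25.9 CPM with IL-4. Every IL-4 library was well above every unstimulated one, a 3.71-fold rise (log2 1.89, SE 0.32, adjusted p 0.00432). Its IL-4 response cannot be set against the E. coli or IFN-γ responses, since it passed a filter only through the libraries with IL-4 and their controls. With IL-4 the mast-cell markers Cma1 (log2 1.61, adjusted p 0.0681) and Tpsb2 (1.16, 0.101) leaned higher too but were not called. Their part in the Ltc4s result was not tested. Ltc4s shares exon bases with Gm26542 on the opposite strand.

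Alox15 codes for the mouse 12/15-lipoxygenase (ENSMUSG00000018924, chromosome 11, minus strand). It was at 1390, 2030 and 1440 CPM in libraries a to c, 1320, 1110 and 1350 CPM with E. coli, 1640, 1450 and 1800 CPM with IFN-γ, and 1110, 959 and 1140 CPM with both. Library b was the highest, IFN-γ overlapped the unstimulated group, and E. coli and combined libraries were below it. Alox15 was lower with both (log2 −0.60, SE 0.15, adjusted p 0.00215) and not called with E. coli (log2 −0.37, SE 0.14, adjusted p 0.0623) or IFN-γ (log2 0.01, adjusted p 0.968). Leaving out single libraries, the E. coli change ran from log2 −0.46 without library a, which was called (adjusted p 0.0378), to −0.15 without library b (adjusted p 0.394). The combination was below IFN-γ alone (log2 −0.61, adjusted p 0.0092), a difference not called without combined library 2 (log2 −0.54, adjusted p 0.0588). With counts expanded for the ceiling, Alox15 was lower with E. coli (log2 −0.63, adjusted p 0.000466), IFN-γ (−0.37, 0.0221) and both (−1.38, 3.13e-08, 2.6-fold). Expanded counts also put it lower with both than with E. coli alone (log2 −0.75, adjusted p 7.78e-05), where deposited counts gave −0.23 (adjusted p 0.238), or −0.24 and called with the replicate number as a block (adjusted p 0.0134). In the 2nd set, with no such ceiling, it was at 2410, 2340 and 2460 CPM unstimulated and 2340, 2440 and 2440 CPM with IL-4, level within the spread (log2 0.00, adjusted p 0.989).

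Stimuli were also tested directly against each other, and the calls of Lta4h, Alox15 and Ptges2 were lost without single libraries, as given above. The combination differed from IFN-γ alone in 3 of 8 members (12.2% of all genes), with Ptgs2 higher and Alox15 and Lta4h lower. Against E. coli alone it differed in 4 (32.8% of all genes): Ptgs2 higher, and Ptgs1, Ptges2 and Alox5 lower. With expanded counts it differed in 6, Alox5ap and Alox15 being lower too. The 32.8% is for deposited counts, so nothing is read from the 6. E. coli and IFN-γ differed in 2 (25.5% of all genes), Ptgs1 and Alox5, both higher with E. coli. Alox15 was lower with E. coli than with IFN-γ at an adjusted p of 0.0636 (log2 −0.38), and it was called by DESeq2 (−0.39, 0.0492), in a fit of the 6 libraries (−0.38, 0.0191), without a filter (−0.37, 0.0254) and with the replicate number as a block (−0.37, 0.000592). It was not called with expanded counts (−0.26, adjusted p 0.119) or in any fit that left out 1 library (−0.46 to −0.29). The interaction in the edgeR quasi-likelihood test was called for 0 members (4.62% of all genes), 3 had an unadjusted p under 0.05 (Ptgs1, Ptgs2 and Ptges2), and DESeq2 called 1, Ptgs1. The 4.62% is for adjusted p in edgeR, so nothing is read from the counts at unadjusted p or with DESeq2. For Ptgs1 the interaction was log2 −0.58 (adjusted p 0.0673), and it was called without IFN-γ library 3 (−0.70, adjusted p 0.0365) or combined library 1 (−0.71, adjusted p 0.029). That interaction was also called with expanded counts (−0.68, adjusted p 0.037) and without a filter. The IL-4 response was called different from the combined response in 7 of 10 members (39.2% of all genes), among them Ltc4s, whose combined side is at the 3-count floor, so nothing is read from it. Of the others, Ptgs1 (log2 0.90, adjusted p 0.000288), Alox5 (0.54, 0.013), Alox15 (0.54, 0.0262) and Lta4h were higher in the IL-4 response, and Ptgs2 and Ptges were lower. The Alox15 difference was not called without library b (log2 0.35, adjusted p 0.0884), combined library 2 (0.47, 0.0772) or IL-4 library 2 (0.53, 0.0518). With expanded counts the number was 8: Alox15 went to log2 1.39 (adjusted p 3.25e-07), Alox5 to 0.88 (0.000142), and Alox5ap from 0.02 to 0.53 and was called (0.00543). The 39.2% of all genes is for deposited counts, so nothing is read from the 8.

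Around the 10 enzymes, 59 further genes of arachidonate release, other synthases, conversion, inactivation, platelet-activating factor and receptors were found in the tables. Of the genes listed only Dpep2, for leukotriene conversion, was not. With E. coli 9 of the 34 tested were higher (26.5%, beside 13.5% of all genes) and 11 lower (32.4%, beside 16.7%). With IFN-γ 6 were higher (17.6%, beside 15.6%) and 14 lower (41.2%, beside 16.0%), and with both 13 were higher (38.2%, beside 23.9%) and 16 lower (47.1%, beside 25.2%). With IL-4 2 of 38 were higher (5.26%, beside 5.97%) and 4 lower (10.5%, beside 4.35%). The 59 genes were chosen with earlier results of these data known, so nothing is read from these shares about the pathway. The shares over all genes are also the background of the smaller lists below, where the counts are too few to read against them. Of 9 release and reacylation genes tested, 2 were higher and 3 lower with E. coli, 2 and 5 with IFN-γ, and 4 and 4 with both, and with IL-4 only 1 of 10 was called, lower. The phospholipase gene Plaat3 split by stimulus, at log2 −1.58 with E. coli (adjusted p 3.54e-05), 1.73 with IFN-γ (6.31e-07) and 1.54 with both (1.31e-06). Pla2g15, a lysosomal phospholipase gene, was lower with IFN-γ (log2 −1.17) and both (−1.83, adjusted p 1.09e-06). Daglb, a diacylglycerol lipase gene, fell with all 3, to log2 −2.91 with both (adjusted p 5.47e-08), and shares exon bases with Rac1 on the opposite strand. Of 5 other prostanoid synthases tested, 2 were higher and 1 lower with E. coli, 1 and 1 with IFN-γ, and 2 and 2 with both. One of the lower, Cbr1, was at log2 −1.17, −1.6 and −1.76 with E. coli, IFN-γ and both. None of 6 was called with IL-4. The only 1 of 5 other lipoxygenases to pass the filter was Alox12e, which fell with E. coli (log2 −1.79), IFN-γ (−1.57) and both (−2.87, adjusted p 5e-10) and rose with IL-4 (1.14, adjusted p 0.0117).

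Downstream of leukotriene A4, 5 conversion and export genes were tested, of which 1 was higher and 3 lower with E. coli, 1 and 2 with IFN-γ, 1 and 3 with both, and 1 and 1 with IL-4. Mgst2, whose product can make leukotriene C4, moved as Lta4h did: log2 −1.46, −1.57 and −2.19 with E. coli, IFN-γ and both, and 1.00 with IL-4 (adjusted p 0.0416). Abcc1, which codes for an exporter of leukotriene C4, went the opposite way, at log2 1.12, 1.24 and 1.89 and then −1.67 with IL-4 (adjusted p 0.000426). Ggt5, whose product converts leukotriene C4 to D4, was lower with both (log2 −2.09, adjusted p 5.35e-05). Of 3 uptake and inactivation genes tested none was called with E. coli, and 1 was higher and 1 lower with IFN-γ and with both. With IL-4 1 of 2 was called, lower. Ptgr1 was log2 2.29 with both (adjusted p 5.97e-06) and −2.19 with IL-4 (adjusted p 0.000395), and Ptgr2 was −1.14 with both. Of 6 genes for platelet-activating factor tested, 2 were higher and 1 lower with E. coli, and 1 was higher with IFN-γ. With both 5 were higher and 1 lower, among them Pafah1b3 (log2 1.70, adjusted p 1.24e-09). With IL-4 1 of 7 was called, lower. Of 5 receptor genes tested, 2 were higher and 2 lower with E. coli, and 4 were lower with IFN-γ and with both. None of 7 was called with IL-4. The prostaglandin E2 receptor genes Ptger2 (log2 −3.13, adjusted p 6.39e-08) and Ptger4 (−2.54, adjusted p 1.85e-07) fell with both. On the opposite strand Ptger2 shares exon bases with Gm17173 and Gm49364, Ptger4 with Gm15937 and Ttc33, and Ptgr2 with Gm47484. Ltb4r2, a leukotriene B4 receptor gene, was lower with IFN-γ (log2 −2.93, adjusted p 1e-06). It averaged 22.5 CPM in libraries a to c and had 0, 1 and 0 counts with both, a fall of at least 11.6-fold against the 3-count floor of 1.94 CPM.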

How the data were processed

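The tables hold the count of each gene in each library as the authors deposited it, on GRCm38. The submitters' processing notes name fastp 0.20.1, STAR 2.7.2a, TopHat2 2.1.0 and HTSeq 0.6.1. Identifiers matched GENCODE M21 for 98.3% of genes in the E. coli and IFN-γ files and 99.7% in the IL-4 files. Lines that name no gene held 21.1 to 39.4% of counts in the former and 0 in the latter and were left out. Counts were filtered, scaled and tested within each set in R 4.3.3 with edgeR 4.0.16 (quasi-likelihood, Benjamini-Hochberg over all genes tested), and IL-4 and combined responses were compared in a fit of all 18 libraries. The marker lists were for eosinophils, macrophages, B cells, T cells, neutrophils, mast cells and basophils, platelets and mesothelial cells. Other pathway genes were named when called at a change of at least 2-fold. Only a few of the largest were named per list and stimulus, so a gene left unnamed may also have passed 2-fold. Alternatives were DESeq2 1.42.0, other filters, size factors, a replicate block, expanded counts and leaving out each library. The members and lists were chosen with earlier results of these data known.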

Additional observations from a re-analysis of the deposited data

Results flagged for a closer look

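For 7 enzyme genes, where 39.2% of all genes were called, the response to IL-4 differed from the response to IFN-γ with E. coli when the log2 responses were tested directly against each other in the fit of all 18 libraries. The IL-4 response minus the combined response was 0.90 for Ptgs1, −4.03 for Ptgs2, −2.30 for Ptges, 0.54 for Alox5, 0.54 for Alox15, 2.78 for Ltc4s and 1.41 for Lta4h. The Ltc4s value is no usable test: the gene did not pass the filter among the 12 libraries of the 1st set, where it had 8, 3 and 3 counts unstimulated and 1, 3 and 1 with both. With counts expanded for the ceiling, Alox15 was 1.39, Alox5 0.88 and Alox5ap 0.53, which made 8 genes, Ltc4s still among them. The 39.2% of all genes is for deposited counts, so nothing is read from the 8. The responses come from sets of libraries that were processed with different file layouts, which cannot be told apart from the stimulus here.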

How the results depend on the processing

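None of the changes that reversed sign was a called value on the deposited counts. With a filter of at least 10 counts, Alox15 with IFN-γ was −0.03. With counts expanded for the ceiling, an alternative chosen after seeing the data, Alox5 with E. coli was 0.01, Alox5ap with E. coli 0.10, Alox5ap with IFN-γ −0.18, Alox15 with IFN-γ −0.37 and Alox5ap with E. coli against IFN-γ 0.27. DESeq2 gave −0.01 for Alox15 with IL-4 and 0 for Ptgs1 with both against IFN-γ, and its size factors alone gave −0.01 and 0 for the same results. Without a filter Alox15 with IL-4 was −0.02. Leaving out each library in turn, the ranges that crossed 0 were as follows: with E. coli Alox5 −0.1 to 0.09 and Alox5ap −0.17 to 0.13; with IFN-γ Ptges2 −0.18 to 0.34, Alox5ap −0.05 to 0.26 and Alox15 −0.09 to 0.23; with both Alox5ap −0.26 to 0.04; with IL-4 Alox5 −0.09 to 0.02 and Alox15 −0.02 to 0.03. Against IFN-γ the combination gave Ptgs1 −0.11 to 0.1, and against E. coli it gave Ptges −0.02 to 0.68 and Alox5ap −0.18 to 0.01. The interaction ran from −0.19 to 0.53 for Ptges, −0.19 to 0.03 for Alox5 and 0 to 0.27 for Lta4h, and IL-4 minus both from −0.17 to 0.12 for Alox5ap.

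Asking for a factor of 2 as well took members called with E. coli from 2 to 1 higher and from 1 to 0 lower, with IFN-γ from 3 to 0 lower, with both from 2 to 1 higher and from 4 to 0 lower, with both against IFN-γ from 3 to 1, with E. coli against IFN-γ from 2 to 1, and with IL-4 minus both from 7 to 4. The filter of at least 10 counts and the expanded counts each took members lower with E. coli from 1 to 2. The interaction count went from 0 to 1 with expanded counts and with DESeq2, and to 2 without a filter, which also took E. coli against IFN-γ from 2 to 5. In a fit with the replicate number as a block, E. coli against IFN-γ went from 2 to 4 members. Over all genes the block took calls from 1153 to 1430, 3178 to 3447 and 2475 to 2750 in the direct comparisons of the 9 stimulated libraries. Leaving out single libraries, members lower with E. coli ran from 1 to 2, with both against IFN-γ from 1 to 3 and the interaction from 0 to 1. The cause was not tested. Apart from the block, no count over all genes is given for these settings, so nothing is read from these member counts about the list.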
